A study of Mus musculus with 7 samples.

Results

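The Dcpp genes encode small secreted proteins, and their transcripts were followed cell by cell in mouse thyroid tissue and in organoids grown from it. The members were chosen by gene name, as the rows Dcpp1, Dcpp2 and Dcpp3 of the single-cell table. Of these 3 genes, 2 had a row among the 30879 genes of the table, Dcpp2 and Dcpp3. Dcpp1 had no row, so no value is given for it. The genes were picked because their levels differed among the samples, and the choice also used their on/off spread over cells. The levels and the spread in each sample are therefore described here without a test.

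Thyroid cells of wild-type C57BL/6 mice were sorted alive into 384-well plates and sequenced by SORT-seq, in which each captured RNA molecule carries a unique molecular identifier (UMI). The samples comprised 2 of dissociated thyroid tissue, 3 of late passage and 2 of early passage thyroid follicular cell organoids (TFCOs), which are cultures of the hormone-producing epithelium. All TFCOs were grown in expansion medium with R-spondin, A83-01, forskolin, EGF and FGF10, and no sample received another treatment. The labels do not say which animal or organoid line a sample came from, nor its age, so p-values measure the spread between these samples only.

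DCPP stands for demilune cell and parotid protein. The proteins are secreted by serous and demilune cells of the mouse salivary glands and have also been described in the oviduct, and they belong to a family of lectin-like secreted proteins related to human ZG16B. The 3 genes are close copies that lie next to each other. Thyroglobulin (Tg), by comparison, is the main secreted product of the thyroid follicular cell and the protein on which thyroid hormone is made.

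All 3 genes lie on the plus strand of chromosome 17 in build GRCm38. In the GENCODE M21 annotation, Dcpp1 spans chr17:23880876-23882853, Dcpp2 spans chr17:23880880-23900788 and Dcpp3 spans chr17:23917458-23919441. The long span of Dcpp2 comes from 1 annotated transcript, Dcpp2-202, which starts inside the first exon of Dcpp1 and shares 30 exon positions with it, or 4.86% of the exon bases of Dcpp1. The other main transcript, Dcpp2-201, starts at 23898721. The coding sequences of Dcpp2 and Dcpp3 were identical at 95.9% of 510 aligned bases, those of Dcpp1 and Dcpp2 at 93.8% of 513, and those of Dcpp1 and Dcpp3 at 93.7% of 510. The 75 coding bases in which Dcpp2 and Dcpp3 differed most are given here because even there few bases separate the 3 genes. They lie in exon 4 of 4 of each gene, at chr17:23882500-23882574 in Dcpp1, chr17:23900435-23900509 in Dcpp2 and chr17:23919088-23919162 in Dcpp3, and capitals mark the 13 positions at which the 3 genes are not all the same:
Dcpp1: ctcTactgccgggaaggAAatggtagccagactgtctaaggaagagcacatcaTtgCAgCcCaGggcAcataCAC
Dcpp2: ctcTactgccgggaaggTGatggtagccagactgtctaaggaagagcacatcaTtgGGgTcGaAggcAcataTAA
Dcpp3: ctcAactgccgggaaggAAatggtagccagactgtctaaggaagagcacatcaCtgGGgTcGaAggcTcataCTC

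Between Dcpp2 and Dcpp3 this stretch held 8 differences, and Dcpp1 differed from each of them at 9 positions. Over whole transcripts, 30.6% of the 50-base stretches of Dcpp2-201 and 36.5% of those of Dcpp3-201 also occur in another gene of the family. SORT-seq reads come from the 3' end of a transcript, and in the last 300 such stretches the shares were 32% and 40%. After the coding sequence, Dcpp2-201 and Dcpp3-201 were identical at all 38 aligned bases. How the authors treated reads that fit several genes is not given in the sources used here. The split of UMIs between Dcpp2 and Dcpp3, and any part that stems from Dcpp1, is therefore uncertain.

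The bases before the transcription start were even more alike, with 98.0% identity between Dcpp2 and Dcpp3 over 248 aligned bases. They are shown because Dcpp2 and Dcpp3 moved together over cells. The last 120 bases before each RefSeq start, on the plus strand of GRCm38.p6, lie at chr17:23880756-23880875 for Dcpp1, chr17:23898602-23898721 for Dcpp2 and chr17:23917338-23917457 for Dcpp3, with the letters ATATAAG in capitals:
Dcpp1: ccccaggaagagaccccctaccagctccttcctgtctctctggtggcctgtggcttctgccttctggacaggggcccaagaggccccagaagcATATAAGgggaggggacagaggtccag
Dcpp2: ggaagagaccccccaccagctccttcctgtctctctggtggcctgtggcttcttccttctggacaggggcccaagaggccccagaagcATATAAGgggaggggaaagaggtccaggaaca
Dcpp3: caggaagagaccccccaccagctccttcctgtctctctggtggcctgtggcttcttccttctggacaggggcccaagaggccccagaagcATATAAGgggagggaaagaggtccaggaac

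These letters, which resemble a TATA box and were picked after the sequences had been read, start 27, 32 and 30 bases before the start of Dcpp1, Dcpp2 and Dcpp3. They occur on the same strand in the last 50 bases of 0.661% of 32851 RefSeq promoters. In the full 250 bases, 8 further motifs were searched on both strands. The letters TGACG, the core of a cAMP response element, were found 192 bases before the start of Dcpp1 and 195 before that of Dcpp3, but not before Dcpp2, and 17.8% of all promoters hold them. The other motifs were in none of the 3 windows. They were the TATA box core TATAAA (held by 12.4% of all promoters), the shared core ACGTG of XBP1 and CREB3L1 (16.6%), and the NKX2-1 core CAAGTG (11.6%). The ETS core GGAAGT (19.7%), the AP-1 site TGANTCA (6.75%), the CCAAT box (33.8%) and the FOXA core TGTTTAC (3.17%) were also searched. A match or its lack describes these letters only.

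Cells of at least 1000 UMIs were used, 305 and 273 in the tissue samples, 307, 360 and 242 in late samples 1 to 3, and 235 and 313 in early samples 1 and 2. Their median depth ran from 3368 to 12380.5 UMIs, and late sample 2 and early sample 1 were the deepest, at 12380.5 and 11059. The plates share one set of well barcodes, and 2238 pairs of TFCO cells from different samples carried the same barcode. Over these pairs the levels of Dcpp2 and Dcpp3 correlated at -0.011 and 0.036, so neither gene followed the well. In TFCO samples the summed level of 12 tabulated airway markers was 0.869 to 1.37 per 10000 UMIs, that of 7 endothelial markers 1.35 to 2.41, of 7 mural markers 0.277 to 1.26 and of 3 parathyroid markers 0.559 to 1.55. The immune, stromal, C cell and erythroid lists summed to at most 0.700, 0.675, 0.124 and 0.0006. The summed level of 18 thyroid follicular cell genes was 122 to 212 per 10000 in TFCO samples and 253 to 299 in tissue.

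Dcpp3 was nearly absent from the tissue and present in every TFCO sample. In tissue it had 0 UMIs in sample 1, which allows a share of cells with a UMI of up to 0.984%, and 2 UMIs in sample 2. Its mean was 4.09, 39.2 and 4.62 UMIs per 10000 UMIs of the cell in late samples 1, 2 and 3, and 25.5 and 2.83 in early samples 1 and 2. All 5 TFCO samples lay above both tissue samples, and late sample 2 and early sample 1 stood far above the other TFCO samples. The passage groups overlapped, since the 3 late samples averaged 15.96 ± 20.1 (SD) and the 2 early samples 14.1 ± 16.01 (SD) per 10000, so the group means differed by less than the spread between samples.

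In the TFCO samples Dcpp2 followed the same order as Dcpp3 at a lower level. Its mean was 0.0245 and 0.0382 per 10000 in tissue, from 4 and 3 UMIs. It was 0.309, 4.55 and 0.561 per 10000 in late samples 1 to 3 and 2.61 and 0.291 in early samples 1 and 2. Late sample 2 and early sample 1 were again the highest. Late TFCOs averaged 1.81 ± 2.38 (SD, n = 3) and early TFCOs 1.45 ± 1.64 (SD, n = 2), and these groups overlapped too.

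**Figure D1:**
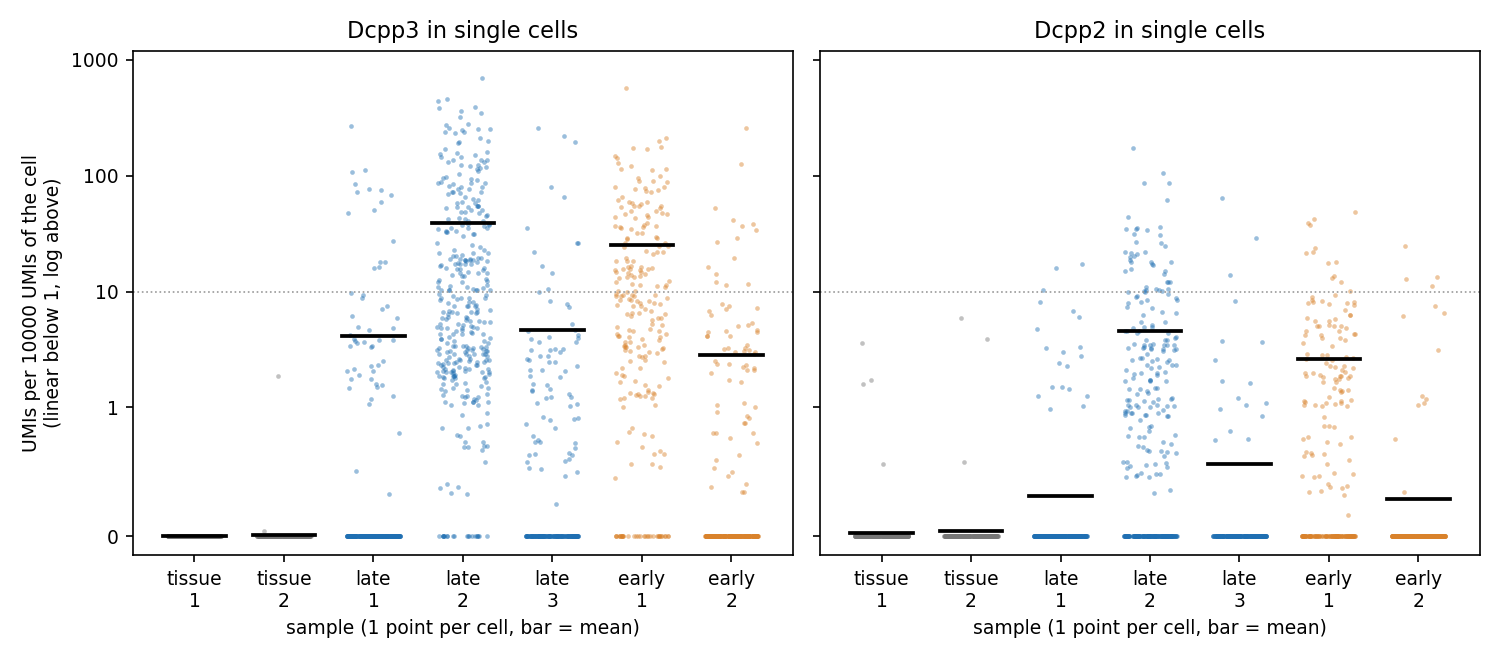
UMIs of Dcpp3 (left) and Dcpp2 (right) per 10000 UMIs of a cell, with 1 point per cell of at least 1000 UMIs, the sample mean as a black bar and a dotted line at 10 per 10000; the vertical axis is linear below 1 and logarithmic above. Tissue cells lie almost all at 0, while late sample 2 and early sample 1 reach means of 39.2 and 25.5 for Dcpp3 and the other TFCO samples hold few cells above the dotted line.

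The few Dcpp UMIs of the tissue lay in 9 of 578 cells with 1 UMI each. Of the tissue cells, 128 had at least 100 Tg UMIs per 10000, and Pax8, a transcription factor of the thyroid lineage, was detected in 22.2% and 32.3% of them against 2.48% and 7.69% of the other cells. These Tg-rich cells had no Dcpp2 UMI and 1 Dcpp3 UMI, which lay in a cell of 268847 UMIs. Their median depth was 2288 and 1876 UMIs, which was lower than in any TFCO sample.

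The share of cells with Dcpp3 differed among TFCO samples as the level did. At least 1 Dcpp3 UMI was found in 17.9% of cells (95% interval 13.8 to 22.7) of late sample 1, in 94.4% (91.6 to 96.6) of late sample 2 and in 32.2% (26.4 to 38.5) of late sample 3. In early samples 1 and 2 the share was 85.5% (80.4 to 89.8) and 23.3% (18.8 to 28.4). In tissue sample 2 it was 0.733% (0.0888 to 2.62). These intervals are exact Clopper-Pearson intervals and cover counting error only.

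Depth differed among the samples, so each cell was also thinned to 3000 UMIs. This left 1230 TFCO cells, with 67, 12 and 21 shallower cells left out of late samples 1 to 3 and 30 and 97 out of early samples 1 and 2. Dcpp3 was then found in 14.2% (10.0 to 19.2), 76.4% (71.6 to 80.8) and 16.7% (12.1 to 22.3) of the cells of late samples 1 to 3. In early samples 1 and 2 it was found in 69.3% (62.5 to 75.5) and 17.6% (12.8 to 23.3). The order fell into a high pair, late sample 2 and early sample 1, whose intervals overlapped, and a low trio whose intervals also overlapped. For Dcpp2 the thinned share was 6.67%, 32.2% and 4.07% in late samples and 28.8% and 3.70% in early samples, with the same pair on top.

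Within each TFCO sample, most Dcpp transcripts lay in a minority of the cells. The 10% of cells with most Dcpp UMIs held 96.2%, 66.3% and 96.2% of the summed Dcpp2 and Dcpp3 UMIs in late samples 1 to 3, and 61.3% and 92.9% in early samples 1 and 2. The highest single cell reached 806 Dcpp UMIs per 10000 in late sample 2 and 614 in early sample 1. In the low samples the highest cells still reached 287, 322 and 285 per 10000, in late samples 1 and 3 and early sample 2. Most of these maxima lay in shallow cells. Among cells of at least 3000 UMIs the highest were 619 in late sample 2 and 222 in early sample 1. They were 124 and 322 in late samples 1 and 3 and 129 in early sample 2. The low samples thus held rare cells within the range of the high samples, among many cells without a UMI.

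**Figure D2:**
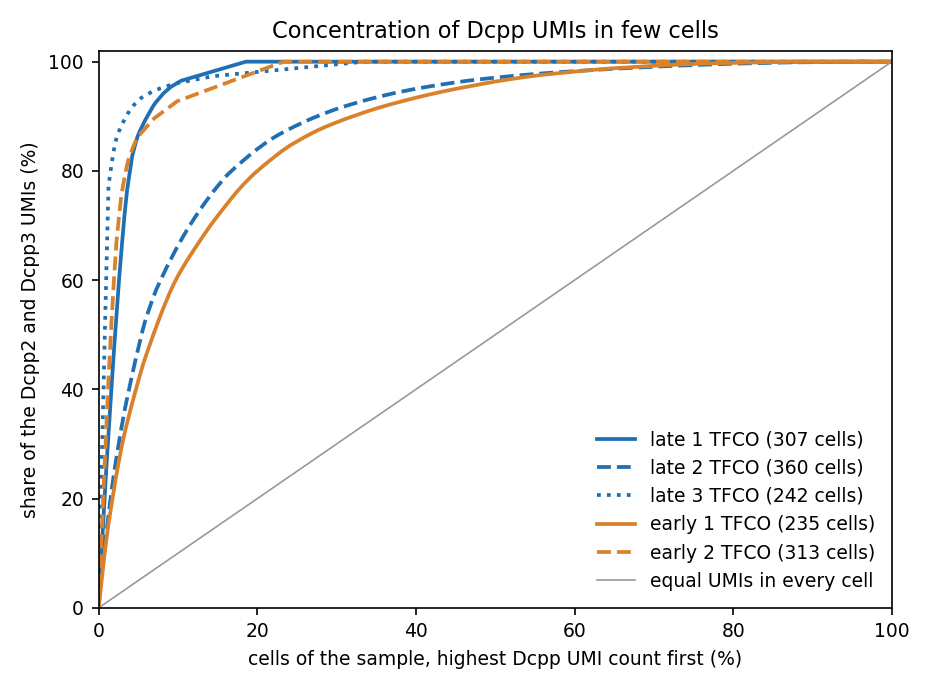
Cumulative share of the Dcpp2 and Dcpp3 UMIs of a TFCO sample (vertical axis, %) held by its cells taken in order of their Dcpp UMI count (horizontal axis, %), with 1 line per sample and a diagonal for equal counts. The top 10% of cells held 61.3% and 66.3% of the UMIs in early sample 1 and late sample 2, and 92.9% to 96.2% in the other samples.

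Cells at 10 or more summed Dcpp UMIs per 10000 are called Dcpp-rich here. They numbered 17 of 307 (5.54%), 164 of 360 (45.6%) and 13 of 242 (5.37%) in late samples 1 to 3, and 105 of 235 (44.7%) and 15 of 313 (4.79%) in early samples 1 and 2. They held 88.3%, 95.9%, 92.4%, 93.1% and 82.9% of the Dcpp UMIs of their samples, in that order. The median level within them was 69.3, 44.8 and 27.7 per 10000 in late samples and 36.6 and 30.1 in early samples. The high and low samples were thus separate in the share of Dcpp-rich cells, while the median levels within those cells overlapped. Dcpp-rich cells were not uniformly deeper than the rest, with medians of 6213, 11556 and 10160 UMIs against 5690, 12754 and 8786 in late samples, and 10523 and 7982 against 11896.5 and 4877 in early samples.

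The spread of Dcpp3 was among the largest of the genes ranked. The choice of the members used these values, so the ranks and zeros below are a description. Among genes with a mean of at least 0.3 UMIs in thinned cells, its Fano factor (variance over mean, which is 1 for counts that vary by sampling alone) was 18.4, 40.2 and 46.5 in late samples and 19.2 and 14.7 in early samples. It ranked 5 of 2163, 2 of 2018 and 2 of 2040 genes in late samples 1 to 3, and 3 of 2148 and 15 of 2117 in early samples 1 and 2. Tg was also near the top, at ranks 7, 13 and 4 in late samples and 11 and 5 in early samples. It stood ahead of Dcpp3 in early sample 2. For Dcpp3, zeros were counted too. Zeros were frequent for such a mean: 23.6% of the thinned cells of late sample 2 had no Dcpp3 UMI, where counts varying by sampling alone around the mean of 10.8 would leave 0.00199%. In early sample 1 these shares were 30.7% and 0.0907%. Dcpp2 reached the mean of 0.3 in late sample 2 and early sample 1 alone, where its Fano factor was 12.3 and 4.97, at ranks 14 and 47.

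Dcpp2 and Dcpp3 rose and fell together over the cells of a sample. The part of this that stems from reads of 1 gene counted to the other was not tested. The Pearson correlation of their log levels was 0.825, 0.834 and 0.739 in late samples 1 to 3 and 0.748 and 0.700 in early samples 1 and 2, over 235 to 360 cells that share a library. Spearman correlations of the levels were 0.566, 0.754, 0.388, 0.690 and 0.455. Cells with Dcpp2 UMIs but none of Dcpp3 were rare, at 2, 0 and 3 in late samples and 4 and 0 in early samples. Dcpp2 made up 7.37% (5.57 to 9.53), 10.9% (10.5 to 11.4) and 11.1% (9.63 to 12.6) of the Dcpp UMIs of the late samples. Early samples 1 and 2 had shares of 9.68% (9.03 to 10.4) and 13.3% (10.6 to 16.3). The intervals of late sample 1 and early sample 2 did not overlap. In Dcpp-rich cells against the others the Dcpp2 share was 7.56% (5.63 to 9.90) against 5.95% (1.96 to 13.3), 11.1% (10.6 to 11.5) against 7.78% (6.00 to 9.88) and 11.5% (10.0 to 13.2) against 5.30% (2.16 to 10.6) in late samples. In early samples it was 9.64% (8.97 to 10.3) against 10.3% (7.82 to 13.1) and 15.2% (12.1 to 18.7) against 4.04% (1.11 to 10.0). The share of pooled UMIs was thus higher in the Dcpp-rich cells of late sample 2 and early sample 2, with intervals apart. In the other samples the intervals overlapped. All these intervals count each UMI as separate, although UMIs cluster in cells, so they leave out the spread between cells. In late sample 2 a single cell held 281 of the 2109 Dcpp2 UMIs and 723 of the 17167 Dcpp3 UMIs. UMIs were not scaled by length, and the main transcripts are 589 and 610 bases long.

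**Figure D3:**
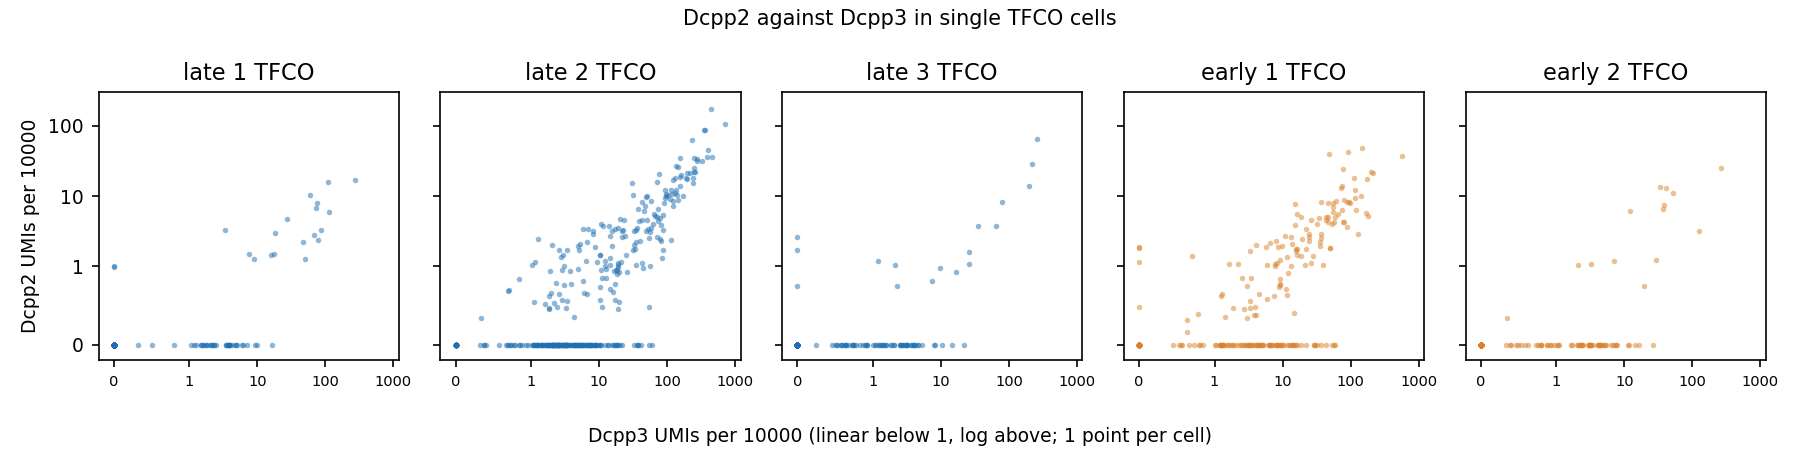
Dcpp2 (vertical axis) against Dcpp3 (horizontal axis) in UMIs per 10000, with 1 point per TFCO cell and 1 panel per sample; both axes are linear below 1 and logarithmic above. Cells rich in Dcpp3 carry Dcpp2 at a lower level, and 0 to 4 cells per sample hold Dcpp2 without Dcpp3.

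The next comparison asked whether cells with more Tg, the other secreted product, also had more Dcpp. Within each TFCO sample, cells were ordered by Tg within 5 bins of total UMIs and cut into 3 parts, and the upper part was compared with the lower. Dcpp3 had a mean of 5.57 against 4.53 per 10000 in late sample 1, 60.5 against 19.5 in late sample 2 and 6.42 against 1.07 in late sample 3. In early samples 1 and 2 it had 48.8 against 7.99 and 5.90 against 1.09. It was higher in the Tg-high cells of 5 of 5 samples, by little in late sample 1 and by over 3 times in the others.

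The fitted log2 difference of Dcpp3 was 1.71 (SE 0.19, limma adjusted p = 5.67e-05), on the scale of log2(mean per 10000 + 0.5). Among the 8988 genes tested this was the largest log2 rise, at rank 1, and rank 4 by p. Dcpp2 rose as well, by 1.18 (SE 0.21, limma adjusted p = 0.00399), at rank 3 by log2 and in 5 of 5 samples. Both genes were chosen with earlier results of these data known, and Dcpp3 spread more widely over cells than most genes. The ranks are therefore given as a description. Of all genes tested, 1.34% passed the threshold of 0.05 in either direction and 0.779% were higher in Tg-high cells. The other genes with large rises included Ccn4, a matricellular signalling protein (1.35), Napsa, an aspartic protease (0.97), and Slc5a5, the iodide transporter (0.78). Without late sample 1, the log2 rise of Dcpp3 was 2.08, and without early sample 1 it was 1.51. The rise was not past the threshold when the sample was not a term of the fit, and when the filter on low genes was dropped (limma adjusted p = 0.257 for Dcpp3 and 0.650 for Dcpp2). Over its 15 alternatives the limma adjusted p of Dcpp3 ran from 4.28e-09 to 0.9996, the latter without the sample term.

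The share of Dcpp-rich cells was higher in the upper than in the lower part by Tg in 5 of 5 samples. It was 32.5%, 48.3% and 55.8% in the lower, middle and upper part of late sample 2, and 25.3%, 38.8% and 70.7% in early sample 1. In the low samples the lower and middle parts were alike, at 2.80% to 4%, and the upper part stood at 9%, 8.75% and 8.74% in late samples 1 and 3 and early sample 2. The intervals of these low shares overlapped, as in late sample 1 with 1.10 to 9.93 in the lower and 4.20 to 16.4 in the upper part. In late sample 3 the middle part held 54.9% of the Dcpp UMIs, more than the 41.6% in the upper part.

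**Figure D4:**
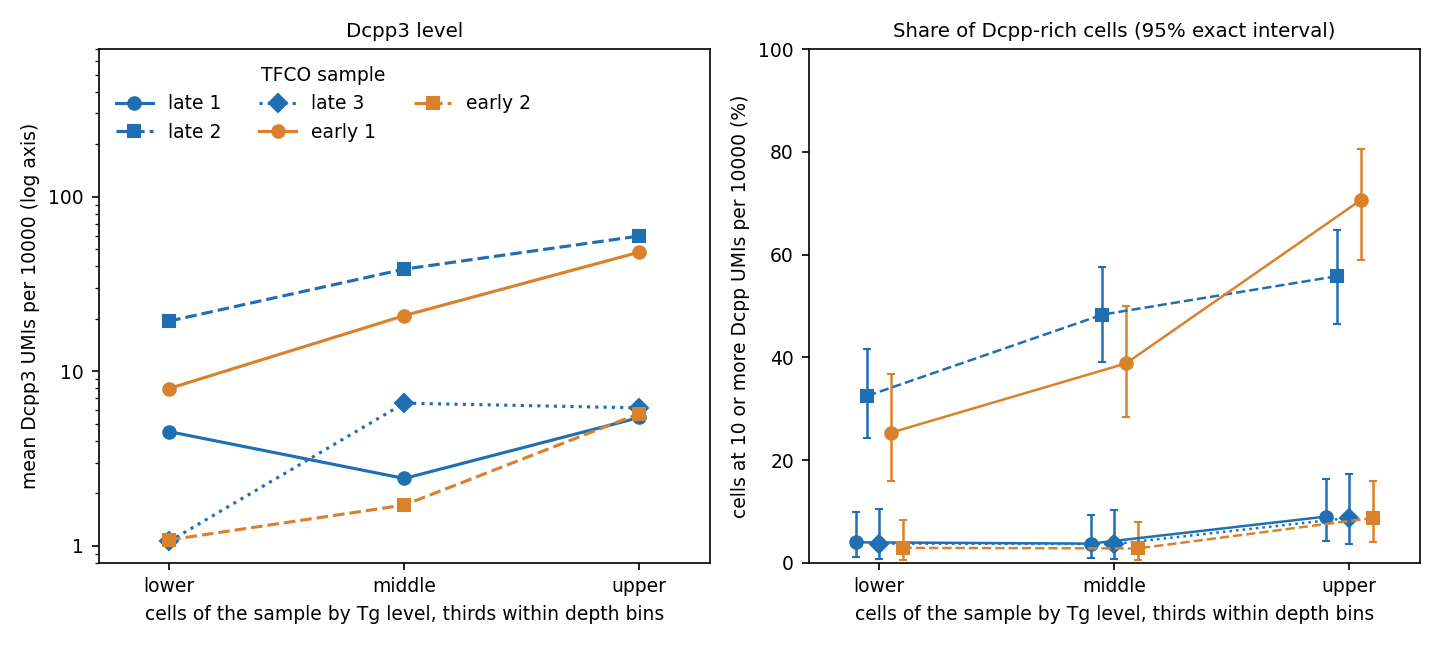
Mean Dcpp3 level in UMIs per 10000 on a logarithmic axis (left) and share of cells at 10 or more Dcpp UMIs per 10000 with exact 95% intervals (right), for the cells of each TFCO sample in 3 parts by Tg level. Late sample 2 and early sample 1 are higher at each step in both panels. The other samples have shares of 2.80% to 4% in the lower and middle parts and 8.74% to 9% in the upper part.

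The high pair of samples was lower in Tg than the low trio. In the samples highest in Dcpp, late sample 2 and early sample 1, Tg averaged 76.6 and 68.5 per 10000. It averaged 133, 154 and 132 in late samples 1 and 3 and early sample 2. Within the pair and within the trio, the samples stood in the same order by Dcpp and by Tg. With 5 samples in 2 separate clusters, no correlation across samples was computed.

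Cells were next split by Dcpp itself, to find genes that go with it. By the same scheme, the upper and the lower part by summed Dcpp level were compared within each sample. In late samples 1 and 3 and early sample 2 the upper part also held cells without a Dcpp UMI, since few cells there had one. The upper part was also shallower in 4 of 5 samples, with a median of 5048.5 against 6252.5 UMIs in late sample 1 and 4235 against 5921 in early sample 2. Of 8921 genes tested, 3 passed the threshold, all higher in Dcpp-high cells (0.0336%), and 619 had an unadjusted p under 0.05.

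Tg was among the 3 genes. Its level was 157, 95.5 and 168 per 10000 in Dcpp-high and 126, 60.4 and 140 in Dcpp-low cells of late samples 1 to 3. In early samples 1 and 2 it was 92.8 and 140 against 53.8 and 134. Tg was higher in 5 of 5 samples, by 0.41 on the log2 scale (SE 0.07, limma adjusted p = 0.0482). This is the association of the Tg split seen from the other side, and not a separate result. Mt1, a metallothionein that binds zinc and copper, was higher by 0.32 (SE 0.06, limma adjusted p = 0.0482) in 5 of 5 samples, at a mean of 96.3 against 77.8 per 10000. Gdpd5, a glycerophosphodiester phosphodiesterase, was higher by 0.92 (SE 0.14, limma adjusted p = 0.00971) in 5 of 5 samples. Its level correlated at 0.442 between cells of different samples with the same well barcode, against 0.059 for Mt1 and 0.044 for Tg, and the part of the well in its difference was not tested. The call of Tg and of Mt1 was lost without late sample 1, 2 or 3 or early sample 1, and that of Gdpd5 without late sample 1 or 2 or early sample 1. All 3 calls were also lost with cells of at least 3000 UMIs, without depth bins, with cells thinned before the split and without proliferating cells. The log2 difference of Gdpd5 then fell to 0.34, 0.40, 0.17 and 0.36, while that of Tg was 0.47, 0.44, 0.36 and 0.44 and that of Mt1 0.32, 0.43, 0.24 and 0.28.

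After these results had been seen, Dcpp-rich cells were compared with all other cells of their sample, a split in which no cell without Dcpp UMIs entered the upper group. Of 8829 genes, 6 passed the threshold (0.068%), 4 higher and 2 lower, each in the same direction in 5 of 5 samples. Of the 6 genes, Tg, Napsa, Alk and Gm49980 were above the minimum mean of 0.2 per 10000 in both groups. Gm12695 and Gm41545 reached it through the Dcpp-rich cells, 13 to 17 in each of the low samples, so their values are given as a description. Tg was at 175, 91.3 and 229 per 10000 in Dcpp-rich cells against 130, 65.2 and 150 in the rest of late samples 1 to 3. In early samples 1 and 2 it was at 89.8 and 202 against 51.8 and 128. On the log2 scale Tg rose by 0.59 (SE 0.07, limma adjusted p = 0.00353), so it was higher by a similar factor in high and low samples.

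Napsa was higher by 0.79 (SE 0.10, limma adjusted p = 0.00374), with 34.5, 18.9 and 28.6 per 10000 against 16.7, 10.2 and 19.0 in late samples and 14.5 and 13.9 against 8.49 and 7.92 in early samples. Napsin A is known from lung and kidney epithelium. Alk, a receptor tyrosine kinase, was lower, with a log2 difference of -1.005 (SE 0.16, limma adjusted p = 0.0296), with 1.29, 12.1 and 2.33 per 10000 against 3.49, 18.2 and 9.14 in late samples and 9.07 and 2.79 against 12.8 and 6.32 in early samples. Gm49980, an unnamed gene model, was also lower, with a log2 difference of -0.81 (SE 0.13, limma adjusted p = 0.0296). Alk and Gm49980 were most abundant in the rest of late sample 2 and early sample 1, the samples with most Dcpp, yet lower in the Dcpp-rich cells there as in the other samples. Gm12695, a predicted protein-coding gene on chromosome 4, had a mean of 0.810 per 10000 in Dcpp-rich cells and 0.118 in the rest.

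Gm41545, a long noncoding RNA, had means of 0.553 and 0.0608 per 10000. RefSeq places it at chr17:23913109-23925356 in GRCm38.p6, across the whole of Dcpp3, and whether the counting used strand is not stated, so its UMIs and those of Dcpp3 may not be separable. It had 0.355, 0.305 and 0.754 per 10000 in Dcpp-rich cells and 0.00844, 0.104 and 0.0140 in the rest of late samples 1 to 3, and 0.992 and 0.361 against 0.159 and 0.0186 in early samples. These levels rest on few molecules, 6, 68 and 17 UMIs in late and 137 and 6 in early samples, and 3 and 1 in tissue. The same-barcode correlation of these 6 genes ran from -0.00046 for Alk to 0.046 for Gm49980.

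**Figure D5:**
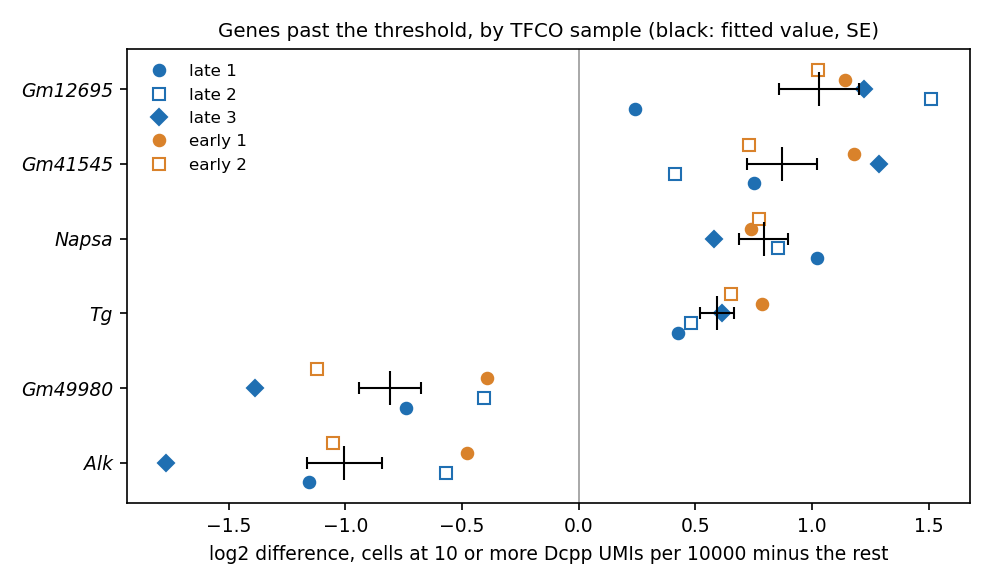
Log2 difference between Dcpp-rich cells and the rest for the 6 genes past the threshold, with 1 coloured symbol per TFCO sample and the fitted value with its SE in black. All samples of Gm12695, Gm41545, Napsa and Tg lie above 0 and all samples of Alk and Gm49980 below it, with fitted values from -1.005 to 1.03. Gm12695 and Gm41545 passed the filter on low genes through the Dcpp-rich cells.

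A test of whether Dcpp-high minus Dcpp-low differences differed between late and early samples called 1 of the same 8921 genes (0.0112%), Wdr37, and none of the genes named above.

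The genes on both sides of the Dcpp genes had too few UMIs to tell whether they share the Dcpp pattern. Prss41, Prss32 and Prss21, serine proteases before Dcpp1, and Sbp, Prss30 and Prss22 after Dcpp3 had 0 to 17 UMIs in every sample. Sbp is a secreted spermine-binding protein, and it had 0 UMIs in tissue and 0 to 3 in TFCO samples.

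Genes whose level followed Dcpp over single cells were named by rank, from the mean over the 5 TFCO samples of Spearman's correlation with the summed Dcpp level in thinned cells. Among the highest of 4804 genes, all positive in 5 of 5 samples, were Napsa (0.226), Sftpb (0.214), H2-D1 (0.185), Tg (0.179), Slc5a5 (0.156), Ppp1r1b (0.134), Ctsl (0.128), Cd36 (0.126) and Rps21 (0.118). The median over all genes was -0.0065 and the 95th percentile 0.048, and 2.16% of genes were positive in 5 of 5 samples. These correlations are weak beside those of Dcpp2 with Dcpp3 in the same cells, 0.450 to 0.646, and are given as a description. The rows of Dcpp2 and Dcpp3 may share reads, so their correlation is not that of 2 separate measurements. Napsa and Sftpb, which encodes a surfactant protein, were led by late sample 2 (0.413 and 0.431) and were low in early sample 2 (0.028 and 0.035), while Slc5a5 was led by early sample 2 (0.358) and was low in early sample 1 (0.025).

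Genes of salivary and mucosal secretion were examined as the company in which Dcpp is known. Of 51 such genes 43 were in the table and 13 were abundant enough to test, and none passed the threshold between Dcpp-high and Dcpp-low cells by limma, with 3 at an unadjusted p under 0.05. Their median log2 difference was 0.01, against -0.02 over all genes tested. Wfdc2, a secreted protease inhibitor, had a log2 difference of 0.34 (limma adjusted p = 0.410), Clu, a secreted chaperone, -0.30 (0.575) and Lcn2, an iron-siderophore carrier, -0.27 (0.710). Of 45 tested genes of the general secretory pathway none passed, 1 had an unadjusted p under 0.05, and the median was -0.0014.

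Among 15 tested thyroid follicular cell genes Tg alone passed, and 3 had an unadjusted p under 0.05. Slc5a5 was higher in 5 of 5 samples, by 0.44 (SE 0.11, limma adjusted p = 0.270). The lineage transcription factors Nkx2-1, Hhex and Pax8 had log2 differences of 0.04, -0.02 and -0.21 (limma adjusted p = 0.953, 0.977 and 0.710). None of the tested immediate early genes (12) or interferon and defence genes (7) passed, with 0 and 2 at an unadjusted p under 0.05. Of 9 tested proliferation genes none passed and 1 had an unadjusted p under 0.05. Of the marker lists of other cell types, 1 airway, 3 endothelial, 1 mural, 1 immune and 1 parathyroid gene were abundant enough to test, and none passed or had an unadjusted p under 0.05.

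Dcpp-rich cells carried the thyroid genes. Their summed level of 18 thyroid genes was 232, 146 and 290 per 10000 in late samples against 184, 119 and 208 in the rest, and 147 and 250 against 102.3 and 169 in early samples, and Tg makes up most of these sums. Their summed airway markers stood at 0.619, 0.979 and 0.584 per 10000 against 1.18, 0.776 and 1.08 in late samples, and at 0.725 and 1.04 against 1.01 and 1.39 in early samples. The airway sum was thus lower in the Dcpp-rich cells of 4 of 5 samples and higher in late sample 2. Of the 12 airway markers, 11, 6 and 10 had no UMI in the Dcpp-rich cells of late samples 1 to 3, and 8 and 9 in early samples 1 and 2. In the other cells 6, 8, 4, 5 and 4 had none, in the same order. The Dcpp-rich cells were fewer, which also bears on these counts. Krt15, Foxj1, Tppp3, Dynlrb2 and Bpifb1 were among the markers with a UMI in the Dcpp-rich cells of late sample 2, and the part of these markers in the Dcpp levels was not tested.

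Proliferating cells, defined by UMIs of at least 4 of 10 proliferation genes, were compared with the other cells. They were 4.89%, 25.8% and 11.98% of cells in late samples and 31.1% and 5.75% in early samples. They were thus most frequent in late sample 2 and early sample 1, the samples rich in Dcpp and also the deepest. The definition counts genes with a UMI in cells that were not thinned. Median depth was 10567, 15210 and 10754 UMIs in proliferating against 5605, 11571 and 8565 in other cells of late samples. In early samples it was 19070 and 13141 against 8016.5 and 4542. The part of depth in these shares was not tested. Within samples, Dcpp3 stood at 5.07, 27.8 and 18.1 per 10000 in proliferating and 4.04, 43.1 and 2.79 in other cells of late samples, and at 15.98 and 0.343 against 29.7 and 2.98 in early samples. It was higher in 2 of 5 samples, late samples 1 and 3, with a log2 difference of -0.15 (SE 0.42, limma adjusted p = 0.896). Late samples 1 and 3 had 15 and 29 proliferating cells, with mean summed Dcpp levels of 5.84 and 21.4 per 10000. The highest single cells among them stood at 69.3 and 322. With at least 5 proliferation genes required, summed Dcpp in late sample 1 was lower in proliferating cells, at 1.51 against 4.52. In late sample 3 it stayed higher in proliferating cells, at 15.5. Dcpp2 had a log2 difference of 0.41 (SE 0.32, limma adjusted p = 0.553) and was also higher in 2 of 5. Among the 9001 genes tested 3.91% passed, Tg among them with a log2 difference of -0.86 (SE 0.13, limma adjusted p = 0.00101) and lower in 5 of 5 samples.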

How the data were processed

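SORT-seq libraries of single cells were analysed from 7 samples, grouped by the passage stage in the labels. The authors deposited 1 table of UMIs scaled to 10000 in each cell, to which 1 was added before the natural log was taken. The submitters' processing notes name Trim Galore 0.4.3, STAR 2.5.3a, Seurat and build GRCm38 (mm10). The gene annotation and the treatment of reads that fit several genes are not given in the sources used here. The log was undone and each cell was divided by its smallest value, which gave whole UMIs for 100% of the 6920804 nonzero values within 0.01. Cells of at least 1000 UMIs were kept. Total depth per sample was 1406925 to 4703472 UMIs.

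Levels are means over cells of UMIs per 10000. Shares carry exact Clopper-Pearson 95% intervals, which cover counting error only, and a count of 0 is given with the share that 3 cells would set. Thinning drew each cell down to 3000 UMIs, without replacement, with a fixed seed. For the Dcpp and Tg splits, cells of a sample were cut into 5 bins of total UMIs and the upper and lower of 3 parts were averaged. Ties went to the deeper cell as lower. The comparisons of Dcpp-rich cells and of proliferating cells used all cells of a sample, without bins or parts, so their groups were not matched for depth. The UMIs of the splitting genes were left out of the totals, except in the comparison of proliferating cells. The log2(mean per 10000 + 0.5) was fitted with limma 3.58.1 (trend) in R 4.3.3, with the sample as a term, for genes with a mean of at least 0.2, and p-values were adjusted by Benjamini and Hochberg over all genes tested at a threshold of 0.05. Tested on simulated data for the Dcpp split, 100% of 100 genes changed 2-fold and 95% of 100 changed 1.5-fold were called, with 0.220% of unchanged genes, among 8854 genes tested. The changed genes were drawn from those at 1 or more per 10000, and no well effect was simulated. Of the 8921 genes tested in the mouse data, 2087 reached a mean of 1, so these shares do not cover the genes below it. In the mouse data, log2 differences of 0.41 for Tg and 0.32 for Mt1 passed in this split. Those of 0.58 for Gata6 and 0.54 for Sftpb did not (limma adjusted p = 0.0677 and 0.440). The share of changes of such size that would be called in the mouse data was not tested.

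The members, the gene lists, the motifs and the tests were chosen with earlier results of these data known. Genes named are Dcpp2 and Dcpp3; genes past the threshold between Dcpp-high and Dcpp-low cells and of 1 sign in 5 samples, up to 12 rises and 8 falls; the 10 genes highest in mean correlation, positive in 5 samples and, in thinned cells, with a mean of at least 0.1 in each; genes of the lists past the threshold, with Tg and Mki67; and the 3 tabulated neighbours on each side. Of the 10 correlated genes, 1 is not reported here. Mki67 did not pass (-0.21, limma adjusted p = 0.738). Other genes named were chosen after their values were seen. Gene models are from GENCODE M21 and upstream sequences from RefSeq GRCm38.p6. The list of well barcodes was read only through the cell names. The Dcpp levels were fitted in no test between samples or groups.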

Additional observations from a re-analysis of the deposited data

Results flagged for a closer look

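Wdr37 was singled out because its difference between Dcpp-high and Dcpp-low cells differed between passage groups. The late minus early difference was 2.25 on the log2 scale (SE 0.34, limma adjusted p = 0.0179), and it was the only one of 8921 genes past the threshold in this test. Its log2 differences were 1.31, 1.33 and 0.18 in late samples 1 to 3 and -1.97 and -0.64 in early samples 1 and 2. Wdr37 levels correlated at 0.362 between cells of different samples with the same well barcode, and the part of the well in this difference was not tested. Without late sample 1 no gene passed this test, with 323 at an unadjusted p under 0.05.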

How the results depend on the processing

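Over 203 alternatives to the reported values, 143 were counted as kept, 38 were no longer past the threshold, 18 moved and 4 changed sign. A tested value was kept if its direction and side of the threshold stayed. A count was kept within 1.5 times, and a level without a test if it moved by at most 1 SD between samples. Leaving out 1 of the 2 or 3 samples of a group cannot move a mean level by more than 1 SD. Those alternatives for levels were therefore bound to be among the 143 and say nothing about stability. The count of 3 genes between Dcpp-high and Dcpp-low cells was 0 without the filter on low genes, with a mean of at least 1 and without the sample term (1315, 209 and 142 genes at an unadjusted p under 0.05). It was 7 with UMIs summed over cells, 6 with Dcpp-rich cells against the rest (an alternative added after the data were seen), and 1 with cells of at least 3000 UMIs, no depth bins, thinned cells or 4 parts in place of 3. It was 2 without proliferating cells, 1700120G11Rik and Proser1, whose same-barcode correlations were 0.544 and 0.751, and none of Gdpd5, Tg and Mt1 was among them. Leaving out 1 sample gave 0 to 5: none without late sample 1, late sample 2 or early sample 1, 1 without late sample 3 and 5 without early sample 2. Gdpd5 was at -0.0025 in the split of Dcpp-rich cells. In that split Tg and Napsa passed as well.

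In the Tg split the log2 differences, 1.71 for Dcpp3 and 1.18 for Dcpp2, were past the threshold under 13 of 15 alternatives each, with 1.51 to 2.08 and 0.84 to 1.42 when 1 sample was left out. Without the filter on low genes and without the sample term the values stayed 1.71 and 1.18 but did not pass. Without the filter more genes are tested, and genes of low level also enter the variance trend that limma fits. Without the sample term the spread between samples enters the error. How far each of these moved the adjusted p was not tested. In proliferating cells, leaving out 1 sample gave -0.10 to 0.69 for Dcpp2, negative without late sample 3, and -0.81 to 0.32 for Dcpp3, positive without early sample 1 (0.03) or early sample 2 (0.32). The late and early difference gave 0 to 1 genes when 1 sample was left out. The SD between samples was wide, and without late sample 2 the late means per 10000 were 4.36 for Dcpp3 (15.96 with it) and 0.435 for Dcpp2 (1.81). Without early sample 1, the early means were 2.83 for Dcpp3 and 0.291 for Dcpp2, and the share of cells with Dcpp3 was 23.3% in place of 54.4%. In tissue, Dcpp2 had 0.0122 per 10000 in cells of at least 3000 UMIs, a UMI in 0.934% of all deposited cells, and at least 2 UMIs in 0% of cells.

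No paired analysis was possible because the labels carry no replicate numbers that tie samples of different groups. Groups of 2 and 3 samples, single cells with 1 to 3 UMIs and the near identity of the Dcpp genes set the limits.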

Other observations

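Over the 20 settings of the Dcpp-high against Dcpp-low comparison, 17 genes passed the threshold at least once. Gdpd5, Mt1 and Tg passed in 8 settings each, Alk and Napsa in 3 each and Gata6 in 2, and the other genes in 1 each. Gata6, Gdpd5, Proser1 and A930016O22Rik had same-barcode correlations of 0.551, 0.442, 0.751 and 0.646, while Tg, Napsa and Alk had 0.044, 0.0043 and -0.00046. The call of Gata6, a transcription factor, therefore concerned a gene whose level moves with the well, and the part of the well in it was not tested.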
